A study of Mus musculus with 2 samples.

Results

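The insulin-like growth factor (IGF) system of epididymal fat was examined as 9 genes: the ligand Igf1, the receptors Igf1r and Igf2r, and the binding proteins Igfbp2, Igfbp3, Igfbp4, Igfbp5, Igfbp6 and Igfbp7. Every probe set that the array annotation assigns to 1 of these genes was taken, which gave 21 of the 22690 probe sets on the array, and 9 of the 12394 genes represented. The fat pad came from male mice on chow, and lies against the epididymis. The knockout mice lack the nuclear receptor PPARβ/δ (gene Ppard), with no restriction to a tissue named in the labels, were 12 weeks old, and had a mixed Sv129/C57BL/6 background. The wild-type mice were 12 to 16 weeks old. Their own label gives the strain 129S1/SvJae, whereas the design text calls them littermates of the knockouts, so strain and genotype cannot be told apart with certainty. The age range differs between the pools as well, so age and genotype cannot be fully told apart either. RNA of 5 animals was pooled per genotype and each pool was hybridised to 1 array. The comparison therefore has n = 1 pool per genotype, no spread between animals, and no test. Every difference below describes 2 arrays, and the number of arrays limits the precision.

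IGF-I is a growth factor made by the liver under growth hormone and also locally in fat, where adipocytes and stromal cells both transcribe Igf1. It signals through the IGF-I receptor, a tyrosine kinase close to the insulin receptor, and supports the growth and differentiation of preadipocytes. The IGF-II receptor does not signal in this way: it takes up IGF-II for degradation and carries mannose 6-phosphate-tagged enzymes to lysosomes. The IGF binding proteins hold IGFs in the extracellular space, and can limit or prolong their access to the receptor; proteases that cut them set the ligand free.

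In the knockout pool the local ligand and nearly all of its binding proteins were lower, and Igfbp2 was higher. The 2 steepest differences were those of Igfbp5, 3.97-fold lower, and Igf1, 2.29-fold lower. The receptors Igf1r and Igf2r were lower by less, 1.35-fold and 1.27-fold. Igfbp2 was 1.47-fold higher, at 40.9 in wild-type and 59.9 in knockout RNA on 1 probe set, both close to the floor defined next. All 9 genes reached an intensity of 32 (log2 of 5) on at least 1 array, the floor used here in place of detection calls. Of these 9, 8 were lower in the knockout pool, 2 of them by 2-fold or more, and none was 2-fold higher. Over all 6533 genes that reached the floor, 55.5% were lower by any amount, 9.14% at least 2-fold lower and 13.7% at least 2-fold higher. The median log2 difference (knockout minus wild type) was -0.53 over the 9 genes and -0.08 over all 6533.

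Igfbp2 and Igfbp5 are neighbours: in RefSeq's gene order on chromosome 1 no protein-coding gene lies between them, and they are transcribed from opposite strands. As measured, these neighbours differed in opposite directions. Each difference rests on 1 probe set above the floor, and Igfbp2, at 40.9 against 59.9, lies near that floor. The 250 bases before each start are shown, from RefSeq's GRCm38.p6 records, each written 5′ to 3′ on the strand of its gene. Whether these sequences bear on the differences was not tested. Igfbp5 is at chr1:72874866-72875115 on the minus strand, and Igfbp2 at chr1:72824230-72824479 on the plus strand. Capitals mark matches to the motifs searched.
Igfbp5: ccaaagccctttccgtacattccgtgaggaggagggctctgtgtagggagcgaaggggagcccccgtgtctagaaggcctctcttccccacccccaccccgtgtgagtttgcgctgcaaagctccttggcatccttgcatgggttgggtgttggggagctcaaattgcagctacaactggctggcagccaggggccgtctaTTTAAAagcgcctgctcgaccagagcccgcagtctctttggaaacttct
Igfbp2: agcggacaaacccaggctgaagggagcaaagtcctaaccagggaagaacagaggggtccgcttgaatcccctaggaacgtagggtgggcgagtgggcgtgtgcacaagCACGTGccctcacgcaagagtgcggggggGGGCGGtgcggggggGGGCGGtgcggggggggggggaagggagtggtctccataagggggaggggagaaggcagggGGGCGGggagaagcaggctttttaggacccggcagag

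The motifs searched on both strands were the TATA box (sequence TATAAA), the CCAAT box, the GC box (sequence GGGCGG), the E-box (sequence CACGTG), the element bound by STAT factors (sequence TTCNNNGAA), 2 copies of AGGTCA spaced by 1 base (the element bound by PPARs), and the TTTAAA motif, which was added after the Igfbp5 window had been read. The TTTAAA motif is a different sequence from the TATA box searched. In the Igfbp5 window the only match was TTTAAA, 49 bases before the start. The Igfbp2 window held 3 GC boxes and 1 E-box. Among the windows of the 9 genes, the GC box occurred in 4, the TATA box, the E-box and the CCAAT box in 2 each and the TTTAAA motif in 1. Of 32807 mouse windows of the same length, 32.7% held the GC box, 12.4% the TATA box, 6.02% the E-box, 33.8% the CCAAT box and 12.1% the TTTAAA motif. The STAT element, found in 7.02% of all windows, and the PPAR repeat, found in 0.0335%, matched none of the 9. The PPAR repeat was searched only as exact copies within 250 bases, and such matches are rare in all windows. Its absence here therefore cannot show whether PPARs bind at these genes. The windows used for Igf1, Igfbp3 and Igfbp4 belong to a start other than the outermost one of the gene record. Igfbp2's window was 67.2% G and C and that of Igfbp5 58.8%, against a median of 52.4%.

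**Figure D1:**
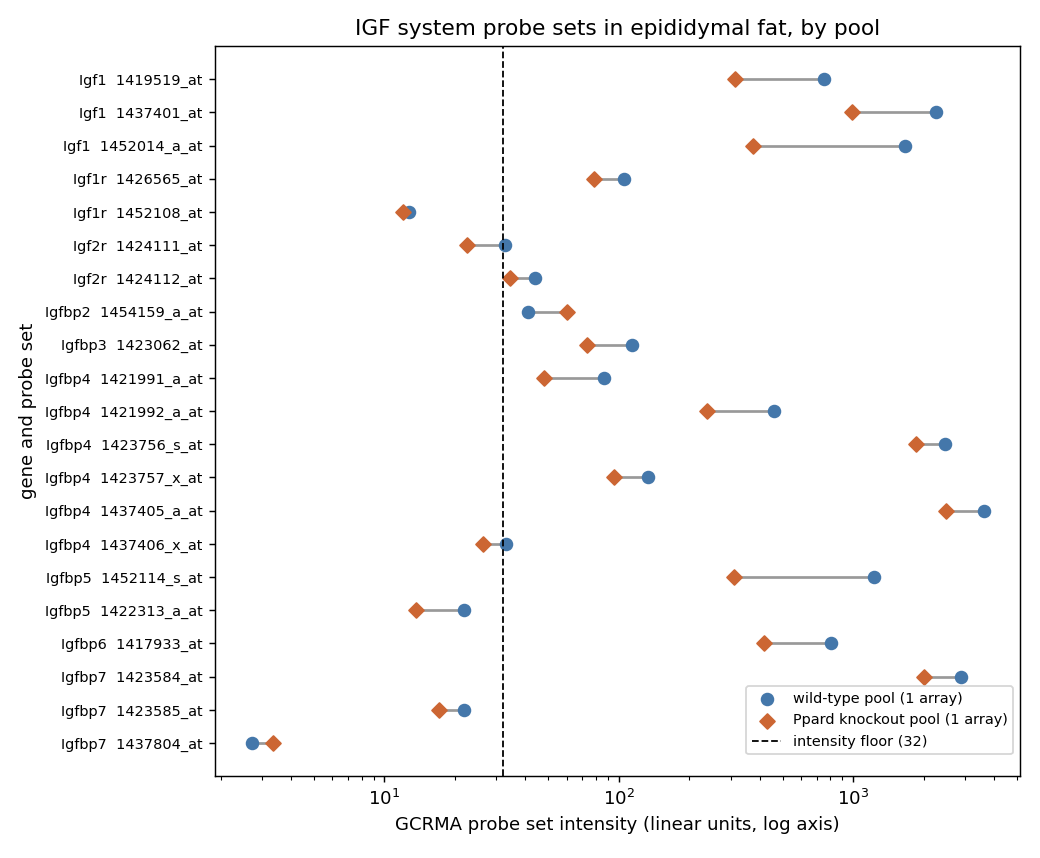
Intensity of each of the 21 probe sets of the 9 IGF system genes (x axis, GCRMA intensity, linear units on a log axis) in the wild-type pool (circles) and the knockout pool (diamonds), 1 array each; the dashed line is the intensity floor of 32. The diamond lies to the left of the circle for all probe sets but that of Igfbp2 and the dimmest of Igfbp7, and the widest gaps are those of Igf1 (1452014_a_at) and Igfbp5 (1452114_s_at).

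Igf1, the ligand, was measured by 3 probe sets. The one that represents the gene here, the brightest (1437401_at), had an intensity of 2263 in wild-type and 990 in knockout RNA. A second set (1419519_at) was at 750 and 313, and the third (1452014_a_at), whose suffix marks a set designed to match several transcripts of 1 gene, at 1664 and 374. All 3 were thus higher in the wild-type pool, by 2.29-fold, 2.40-fold and 4.45-fold. The log2 differences ranged from -2.15 to -1.19 and averaged -1.54, with an SD between probe sets of 0.54. For comparison, over the 2137 genes with several probe sets above the floor, that SD had a median of 0.25. The 3 sets of Igf1 therefore shared a direction and a difference of 2-fold or more, but not its size. Of the 6533 genes, 391 were lower in the knockout pool by more than Igf1.

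Among the receptors, Igf1r, which transmits the IGF-I signal, had an intensity of 106 in wild-type and 78.4 in knockout RNA at the probe set above the floor, a log2 difference of -0.43. Its other probe set was below the floor on both arrays, at 12.7 and 12.0. Igf2r, the mannose 6-phosphate carrier, was close to the floor. One of its sets was at 44.0 against 34.5 (wild type first, as in every pair of values below), and the other at 32.8 against 22.6, so that its second value gives only a bound, at least 1.03-fold lower. Both receptors lay inside the middle of the distribution of all genes, whose quartiles of the log2 difference were -0.50 and 0.42. Igf2r lies on chromosome 17, as does Ppard, with 301 protein-coding genes between them.

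Igfbp5, a binding protein that adheres to the extracellular matrix, had the lowest difference of the 9 genes. Its probe set above the floor (1452114_s_at) was at 1227 in wild-type and 309 in knockout RNA, a log2 difference of -1.99. Of the 6533 genes, 58 had a lower one. The suffix of this set marks probes that may match more than 1 transcript family. The other probe set of Igfbp5 was at 21.9 and 13.6, below the floor on both arrays, though in the same direction. The 3.97-fold value thus rests on 1 probe set.

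Igfbp6, which binds IGF-II in preference to IGF-I, was at 804 against 416, 1.93-fold lower and so just short of 2-fold. Igfbp3, the main carrier of IGFs in blood, was at 114 and 72.9, a log2 difference of -0.65. These genes had 1 probe set each, so no second measurement on the array stands beside either value.

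Igfbp4, a binding protein that is cut by the protease pregnancy-associated plasma protein A and restrains IGF action in most settings, had 6 probe sets above the floor. The brightest (1437405_a_at) was at 3614 against 2500, 1.45-fold lower. The 6 log2 differences ran from -0.94 to -0.32, with an SD of 0.25, close to the median of 0.25 over all such genes. The -0.32 belongs to the dimmest set (1437406_x_at), at 33.0 and 26.4. Its knockout value is below the floor, so it gives only a bound, at least 1.03-fold lower. The sets with the lowest differences, 1421992_a_at (459 and 239) and 1421991_a_at (86.6 and 48.1), were neither the brightest nor the dimmest. All 6 were lower in the knockout pool and none by 2-fold.

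Igfbp7, a low-affinity relative that is abundant in vessel walls and secreted by stromal cells, was at 2872 and 2001, a log2 difference of -0.52. Its other 2 probe sets were below the floor on both arrays. Igfbp2, which is associated with leptin action and protection from fat gain in mice, differed in the other direction: its intensity was 40.9 in wild-type and 59.9 in knockout RNA, a log2 difference of 0.55. Both values lie within 1 log2 unit of the floor, and only 1 probe set measured the gene. At the level of probe sets, 17 of the 21 reached the floor, and 16 of these 17 were lower in the knockout pool, 4 of them at least 2-fold (3 of Igf1 and 1 of Igfbp5). Of all 9637 probe sets at or above the floor that name 1 gene, 56.8% were lower and 8.99% at least 2-fold lower. Sets of 1 gene measure transcripts of that same gene and are not independent.

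**Figure D2:**
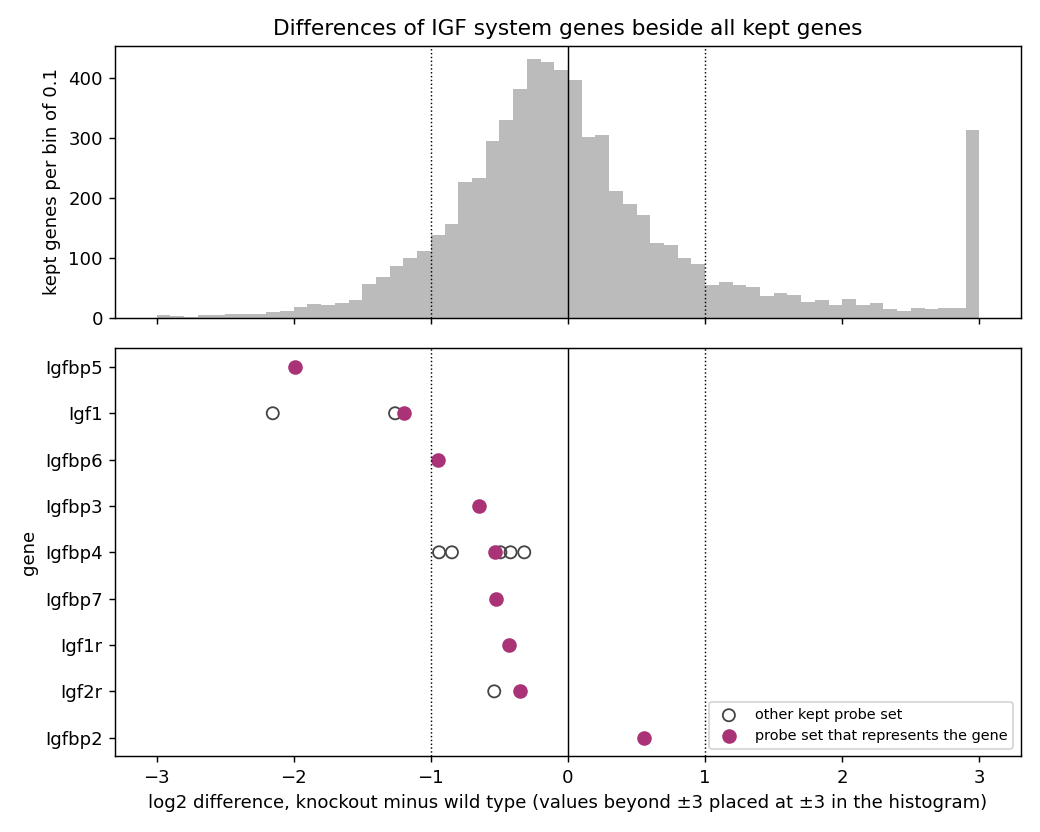
Top: histogram of the log2 difference, knockout minus wild type, of all 6533 genes at or above the floor (bins of 0.1; values beyond the ends placed in the end bins). Bottom: the 9 IGF system genes on the same axis, with filled points for the probe set that represents each gene and open points for its other sets above the floor; dotted lines mark 2-fold. Igfbp5 (-1.99) and Igf1 (-1.19) lie beyond the left line and Igfbp2 (0.55) alone lies to the right of 0.

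The other ligands and carriers of the system were too dim to compare. Igf2, the fetal ligand, was at 28.8 and 16.9 at its brighter probe set. Igfbp1, the neighbour of Igfbp3 on chromosome 11 and a mainly hepatic binding protein, was at 10.6 and 7.96. Igfals, the liver-made subunit that stabilises the circulating IGF complex, and Igfbpl1 were likewise too dim in both pools. The targeted gene Ppard was at 6.58 and 6.27, so it gives no check of the genotype labels; which part of the transcript its probe set covers was not known here.

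A further 10 lists of genes around the IGF system held 96 genes, of which 79 had a probe set and 52 reached the floor. Of these 52, 39 were lower in the knockout pool and 13 higher, with a median log2 difference of -0.44. Over all 6533 genes 55.5% were lower. On the values as measured, 15 of the 52 differed by 2-fold or more on the lower side and 3 on the higher. Over all genes these shares were 9.14% and 13.7%. With values below the floor set to it, the counts were 11 and 2, and the shares over all genes 7.99% and 11.4%. The same shares over all genes apply to the counts of each list below, where they are repeated only for some.

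Growth hormone signalling, which drives Igf1 transcription through the kinase JAK2 and STAT5, had the lowest median of these 10 lists. All 6 of its genes above the floor were lower in the knockout pool, with a median of -1.05 as measured and -0.76 with values below the floor set to it. As measured, 4 differed by 2-fold or more, namely Stat5a, Socs3, Ghr and Socs2, the last 3 named after their values were seen. With values at the floor only Ghr and Socs2 did. Over all genes 55.5% were lower and 9.14% at least 2-fold lower, or 7.99% with values at the floor. Ghr, the growth hormone receptor, was at 5038 in wild-type and 2402 in knockout RNA, and its 3 probe sets ranged from -1.53 to -1.07. Socs2, a feedback inhibitor of the receptor that STAT5 induces, was at 81.9 and 40.0. Stat5a was at 61.8 and 27.8, the second value below the floor, at least 1.93-fold lower, and Socs3, another feedback inhibitor, at 47.4 and 21.8, at least 1.48-fold lower. Jak2 differed least, at 90.6 and 78.1. The count also depended on small margins: with differences centred on the median of all genes, 2 genes were 2-fold lower, and with 32 added to each intensity 1. The shares of all genes at least 2-fold lower were then 7.70% and 5.25%.

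The receptors and adaptors next to IGF-I receptor had 8 genes above the floor, 6 lower and 2 higher. Their median was -0.72 as measured and -0.57 with values below the floor set to it. With the trend of the difference on intensity removed 5 were lower, against 47.9% of all genes. Sh2b2, an adaptor of the insulin receptor, was lowest, at 132 against 27.8, a value under the floor, and so at least 4.11-fold lower. Irs1, the main docking protein of both receptors, chosen after its value was seen, was at 357 and 163. The highest was Ptpn1, a phosphatase that switches the receptors off, at 118 and 182, but its other probe set was at 33.5 and 32.1. Insr, the insulin receptor, was below the floor on both arrays, at 13.8 and 11.9 at its brighter set.

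Downstream, 15 genes of the PI3K, Akt and mTOR pathway reached the floor. Of these, 10 were lower, 5 of them at least 2-fold, and 5 higher, 2 of them at least 2-fold. The median was -0.37. Over all genes 9.14% were at least 2-fold lower and 13.7% at least 2-fold higher, so the count on the higher side was near that share. Pik3r1, a regulatory subunit of PI3K, was lowest at 1048 and 255. Pdpk1, the kinase that activates Akt, was highest: the set that represents it was at 36.2 against 352, whereas its other set was at 114 and 100, so its direction depends on the probe set. In the Ras and MAPK list 3 genes reached the floor, from Map2k1 at -0.79 to Map2k2 at 0.57. Their median was -0.10, that of Nras, and turned positive with no floor (0.11, 4 genes), with the mean of all probe sets (0.12) or with the intensity trend removed (0.06).

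Outside the cell, Htra1, a protease that cleaves IGF binding proteins, was at 870 and 446. Its other probe set above the floor was at 313 and 115. Adam28, a metalloprotease reported to cut IGFBP3, was at 1823 and 3283. Htra1 and Adam28 were the lowest and the highest of 3 protease genes above the floor (median -0.45). Pappa, the protease of Igfbp4, was below the floor on both arrays. All 5 matrix and cell surface partners of the binding proteins above the floor were lower (median -0.57), from Lrp1, an endocytic receptor that binds IGFBP3, at 503 and 144, to Itgav, an integrin subunit, at 750 and 632. In the CCN family, matrix proteins that share a domain with the IGF binding proteins, Ccn3 was at 41.7 and 17.1, at least 1.30-fold lower, and Ccn2 at 195 and 212. The median of the 3 CCN genes was -0.72 (-0.38 with values at the floor), and with a floor of log2 6 only Ccn2 was left.

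For the cargo of Igf2r, 8 genes of mannose 6-phosphate sorting and lysosomal enzymes reached the floor. Of these, 6 were lower and 2 higher, none by 2-fold (median -0.28); with differences centred on the median of all genes 5 were lower. Ctsb, cathepsin B, was at 5264 and 2953, and Ctsl, cathepsin L, at 4152 and 4662. Of the RNA-binding proteins named for Igf2 mRNA, Igf2bp3 was at 9.81, under the floor, against 52.0, and so at least 1.63-fold higher. The other 3 probe sets of Igf2bp3 were below the floor on both arrays.

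**Figure D3:**
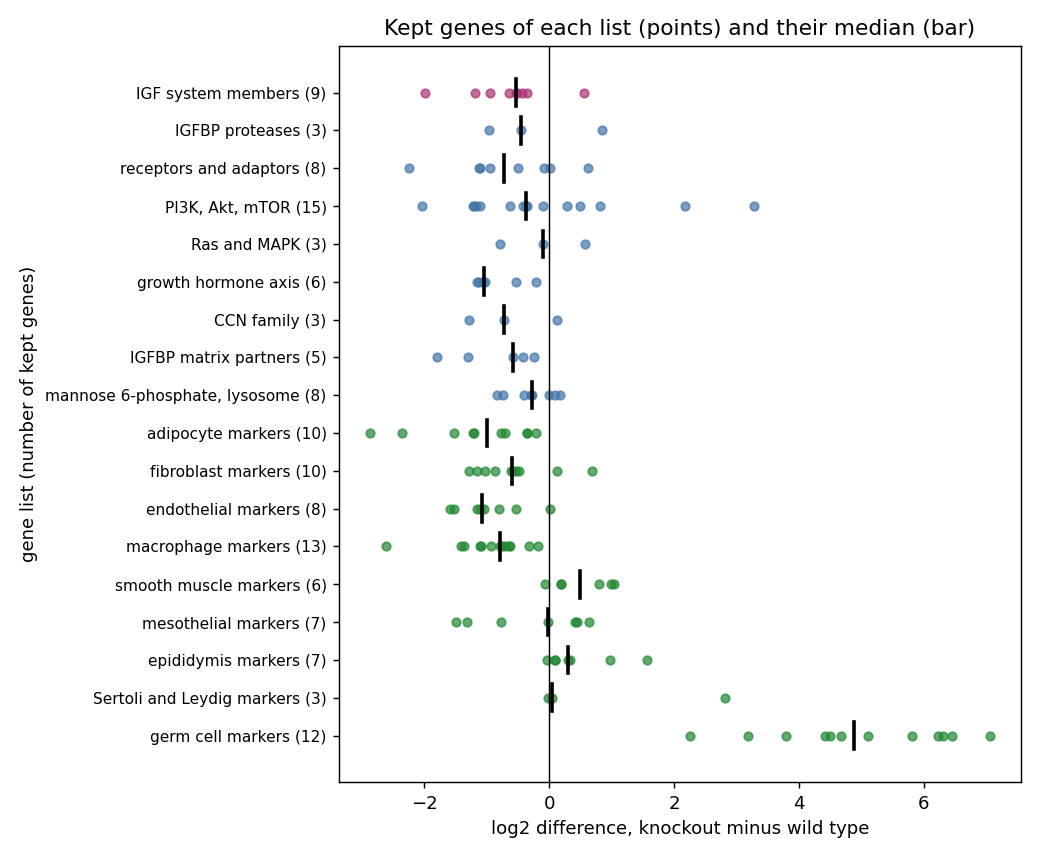
Log2 difference, knockout minus wild type, of each gene at or above the floor (points) and the median (black bar) for the 9 IGF system genes, the lists of related genes that had at least 3 such genes, and the cell type marker lists; the count of genes is in brackets. The IGF system median of -0.53 sits beside those of the growth hormone axis (-1.05), adipocyte markers (-0.99) and fibroblast markers (-0.59), and germ cell markers lie far to the right (4.89).

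Cell type markers differed between the pools, in several lists with a lower median than the IGF genes. Over all genes 55.5% were lower. Of 12 adipocyte markers 10 had a probe set, all 10 were lower in the knockout pool (median -0.99), and their summed intensity was 67790 against 45454. Of 12 fibroblast markers 10 reached the floor and 8 were lower (median -0.59; sums of 20106 and 13774), with Thy1 below the floor on both arrays. Of 10 endothelial markers 8 reached it and 7 were lower (median -1.07; sums of 1181 and 607), and all 13 macrophage markers were lower (median -0.78; sums of 5827 and 3490). The difference of Igfbp5, -1.99, was lower than that of every fibroblast, endothelial and smooth muscle marker above the floor, whereas the adipocyte markers Lep (-2.87) and Pparg (-2.35) were lower still. So was the macrophage marker Cd163 as measured (-2.61), but its knockout value is below the floor, so that it is at least 2.68-fold lower. Igf1, at -1.19, lay within the range of the adipocyte markers (-2.87 to -0.20) and of the fibroblast markers (-1.28 to 0.68). It also lay within those of the endothelial (-1.59 to 0.01), macrophage (-2.61 to -0.17) and mesothelial markers (-1.49 to 0.63). It was below every smooth muscle, epididymis, germ cell, and Sertoli and Leydig marker above the floor. Lying within or outside such a range does not show which cells account for the difference of Igf1, which was not tested.

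Other markers were higher in the knockout pool. The 12 germ cell markers were all higher by 2-fold or more (median 4.89, sums of 2855 and 53673), against 13.7% of all genes. Epididymis markers were higher for 6 of 7 (median 0.30; sums of 45455 and 50958), and smooth muscle markers for 5 of 6 (median 0.50; sums of 5684 and 7790). Mesothelial markers were split, 4 lower and 3 higher (median -0.01, sums of 3680 and 4282). The 3 higher were the keratins Krt8 (0.63), Krt18 (0.42) and Krt19 (0.44), and Krt18 alone was at 1807 and 2417. The lower ones were Gpm6a (-1.49), Upk3b (-1.33), Msln (-0.78) and Wt1 (-0.01), the last 2 with knockout values below the floor. The sums therefore follow the keratins more than the other markers. Of 9 Sertoli and Leydig cell markers with a probe set, 6 stayed under the floor in both pools. Cyp17a1, a steroid hydroxylase named after its value was seen, was at 44.0 and 312 (median of 3 genes 0.05; sums of 114 and 383). The part of these shifts in the IGF system differences was not tested, and fewer cells of a type cannot be told apart from less RNA per cell in pooled tissue.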

How the data were processed

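The deposited values are probe set intensities on a linear scale, which the authors computed with GCRMA 2.20 (per the submitters' processing notes); the set of arrays normalised jointly is not stated in the labels. GCRMA corrects background by probe sequence and equalises quantiles between arrays, which can enlarge folds of dim probe sets. The analysis design allowed for either scale; log2 of each intensity was taken (values ran from 1.91 to 36322). Probe sets were named from the array annotation, updated by gene identifier to GRCm38.p6 symbols: 20393 named 1 gene, 691 several and 1606 none, the last 2 kinds being left out. A probe set was kept with log2 of at least 5 on 1 array. Each gene took its kept set with the highest mean. With 1 array per group no test was run. Where the dimmer value is below the floor, folds use the floor and read "at least". Named genes are all 9 members, Ppard, Igf2, Insr and the extremes of each list; others were chosen after their values were seen. Members and lists were chosen with earlier results of these data known. Scripts (Python 3.11.15, pandas 2.3.3) were tested on simulated data, and 11 alternatives were tried.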

Additional observations from a re-analysis of the deposited data

How the results depend on the processing

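Under all 11 alternatives (other floors, values set to the floor, other choices of probe set, centring, removal of the intensity trend, 32 added to each intensity, no probe sets of shared sequence, older symbols), each of the 9 genes kept its direction wherever it could be measured. With a floor of log2 6, 7 genes were left and Igfbp2 and Igf2r dropped out. Without probe sets of shared sequence Igfbp5 dropped out, since its other set is below the floor, and 1 gene instead of 2 was at least 2-fold lower. The mean over its probe sets moved Igf1 from -1.19 to -1.54. Over all settings Igf1 lay between -1.54 and -1.04, Igfbp5 between -1.99 and -1.83, Igfbp6 between -0.95 and -0.79 and Igfbp2 between 0.33 and 0.67, and the median of the members measured between -0.65 (7 genes, floor of log2 6) and -0.42. Of 140 recomputed values 138 stayed within the median SD between probe sets of 1 gene (0.25) or, for counts, within 1.5 times. Many of these values did not or could not move. A lower floor or none, values set to the floor, and older symbols left every member at its main value. For genes with 1 kept probe set, other choices among kept sets did too. The count of unchanged values is therefore no measure of how firm the differences are. No paired analysis was possible because each genotype has 1 pool, and no array could be left out. The signals of Igf2r and Igfbp2 lie near the floor, which limits both values.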

Other observations

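The antisense transcripts of the 2 ligands were below the floor on both arrays. Igf1os was at 12.9 in wild-type and 11.7 in knockout RNA, and Igf2os at 12.2 and 10.8.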
